A study of Mus musculus with 24 samples.

Results

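The 7 genes Spon2, Tspan4, Mthfd1l, Tex11, Slc25a33, Tmem171 and Leo1 were examined in mouse lung after dosing with carbon nanomaterials. They are 7 of 20738 genes with a named spot on the array and 7 of the 16519 whose signal was high enough to test, and each passed that filter in all 24 samples. They were selected on the array signal itself, because it differed among the 5 materials other than rCNT, so differences among those materials, and between them and the vehicle, are given here as a description with no test. In an F test across all 16519 genes for any difference among these 5 materials (limma), 48 genes (0.291%) had an adjusted p under 0.05, and the 7 genes ranked 1 (Spon2), 3 (Tspan4), 6 (Mthfd1l), 8 (Slc25a33), 11 (Tmem171), 13 (Leo1) and 45 (Tex11). These ranks restate how the genes were picked and are no test of them. The choice did not use the difference of rCNT from vehicle, and this difference was tested. Its standard errors rest on the spread over all 24 samples, including those used in the choice, so the test is not wholly free of it.

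The study asked which lung genes are altered by carbon materials of different form. Female C57BL/6 mice of 7 to 8 weeks breathed in 50 µl of saline (PBS) from the back of the throat (oropharyngeal aspiration) daily over 4 days, and the lungs were collected 24 h later. The saline carried nothing in the Ctrl group, and 10 µg a day of the material named by the label in the groups rCNT, tCNT, SES, Graphite, BayTubes and fullerene; the sources used here do not spell out SES. Each sample was RNA pooled from 2 mice, and the groups held 4 samples for Graphite, BayTubes and fullerene and 3 for the rest. Samples were read as pairs, 1 per dye, on 12 arrays on 3 slides, and the values are log2 signals in which 1 unit is a doubling. With arrays, precision depends on how many samples there are, not on a read depth.

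The lung origin was visible in the defining markers. Sftpc, the surfactant gene of alveolar type 2 cells, had a mean log2 signal of 17.58 over the 24 samples, Scgb1a1 of club cells 17.44 and Cldn5 of endothelium 14.56. Residuals of samples on the same array correlated (median r = 0.358 over the 12 arrays, from 0.103 to 0.785), and array was therefore modelled as a random block. The highest value belonged to the array of rCNT 4 and Graphite 16, and omitting it is among the alternatives given at the end. In whole lung RNA, fewer cells of a type and less RNA per cell cannot be told apart.

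The 7 genes belong to no single pathway. Spon2 (mindin) is a secreted matrix protein that binds microbial surfaces and integrins of leukocytes. Tspan4 is a tetraspanin, a membrane protein with 4 spans that organizes membrane domains and is used as a marker of migrasomes, and Tmem171 is a transmembrane protein. Mthfd1l is the mitochondrial enzyme that releases formate from folate for purine synthesis in the cytosol, and Slc25a33 carries pyrimidine nucleotides across the inner mitochondrial membrane. Leo1 is a subunit of the PAF1 complex, which travels with RNA polymerase II during elongation, and Tex11 is an X-linked gene known for chromosome pairing and crossovers in meiosis. Lung cells also run a circadian clock, a feedback loop in which Arntl (Bmal1) and Clock switch on Per and Cry genes, which then repress them, while Nr1d1 and Nr1d2 repress Arntl, and Dbp, Tef and Hlf pass the rhythm on to other genes.

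Spon2 (chr5:33213518-33218254, GRCm38.p6) had the widest range of the 7 genes. Its log2 signal was 10.60, 10.66 and 10.44 in Ctrl samples 1, 2 and 3, and 11.10, 11.44 and 11.03 in rCNT 4, 5 and 6. It was 8.81, 8.70, 8.50 and 8.97 in BayTubes 17 to 20 and 8.92, 8.28, 8.69 and 8.39 in fullerene 21 to 24. Every BayTubes and fullerene sample lay below every sample of the other 5 groups. The fitted log2 difference from Ctrl was -1.81 ± 0.14 (SE, n = 4 against 3) after BayTubes, which is 3.5-fold lower, and -1.96 ± 0.16 after fullerene, which is 3.89-fold lower. In between lay tCNT at 10.13 ± 0.19 (SD, n = 3), SES at 9.89 ± 0.08 (n = 3) and Graphite at 9.60 ± 0.27 (n = 4). From high to low the groups ran rCNT, Ctrl, tCNT, SES, Graphite, BayTubes, fullerene. Neighbours in this order overlapped only for SES with Graphite and for BayTubes with fullerene.

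**Figure D1:**
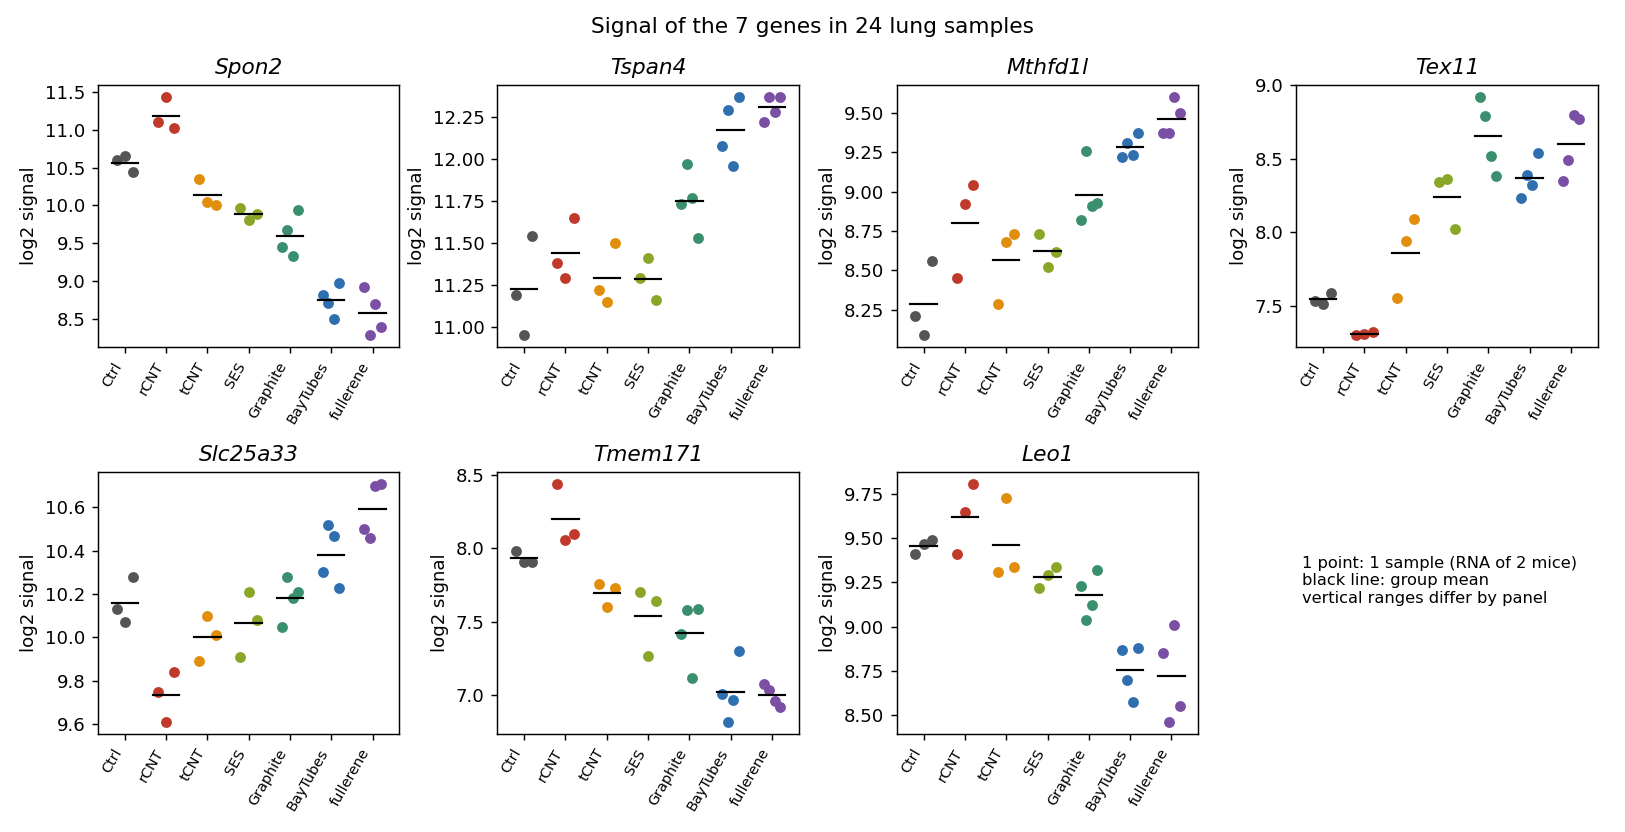
Log2 signal (vertical axis) of each of the 7 genes in the 24 samples, by group; each point is 1 sample and the black line is the group mean. Spon2, Tmem171 and Leo1 are lowest after BayTubes and fullerene, Tspan4, Mthfd1l and Slc25a33 are highest there, and the mean of Tex11 is highest after Graphite (8.65).

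Tmem171 (chr13:98686236-98695654) followed the same order of groups as Spon2 at a lower signal. It was 7.98, 7.91 and 7.91 in Ctrl 1 to 3 and 8.44, 8.06 and 8.10 in rCNT 4 to 6. It was 7.01, 6.82, 6.97 and 7.30 in BayTubes 17 to 20 and 7.08, 7.04, 6.96 and 6.92 in fullerene 21 to 24. Each of these 8 samples was below every Ctrl and rCNT sample, while BayTubes 20 reached into the range of Graphite (7.12 to 7.59) and of SES (7.27 to 7.70). The difference from Ctrl was -0.90 ± 0.12 after BayTubes and -0.89 ± 0.13 after fullerene, against -0.51 ± 0.13 after Graphite, -0.36 ± 0.14 after SES and -0.17 ± 0.14 after tCNT. Over the 24 samples Tmem171 correlated with Spon2 at r = 0.95, and at 0.43 once group means were removed.

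Leo1 (chr9:75441015-75466432) was the third gene that was low in these groups. It was 9.41, 9.47 and 9.49 in Ctrl 1 to 3, 8.87, 8.70, 8.57 and 8.88 in BayTubes 17 to 20, and 8.85, 8.46, 9.01 and 8.55 in fullerene 21 to 24. The BayTubes and fullerene samples lay below all samples of the other groups, of which the lowest was Graphite 14 at 9.04. The difference from Ctrl was -0.66 ± 0.12 after BayTubes and -0.68 ± 0.14 after fullerene. The rCNT, tCNT and Ctrl means (9.62, 9.46 and 9.46) stood at the high end, and neighbouring groups in that part of the order overlapped.

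Tspan4 (chr7:141475236-141493427) moved the other way. It was 11.19, 10.95 and 11.54 in Ctrl 1 to 3, 12.08, 12.29, 11.96 and 12.37 in BayTubes 17 to 20, and 12.22, 12.37, 12.28 and 12.37 in fullerene 21 to 24. All 8 were above the Ctrl samples, and Graphite (11.53 to 11.97) lay between, touching both ranges. The difference from Ctrl was 1.00 ± 0.12 after BayTubes (1.99-fold), 1.11 ± 0.13 after fullerene (2.16-fold) and 0.55 ± 0.13 after Graphite. Means in tCNT, SES and Ctrl were 11.29, 11.29 and 11.22, so that part of the order was not resolved.

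Mthfd1l (chr10:3972892-4167081) resembled Tspan4, with r = 0.92 over the 24 samples and 0.58 within groups. It was 8.21, 8.09 and 8.56 in Ctrl 1 to 3, 9.22, 9.31, 9.23 and 9.37 in BayTubes 17 to 20, and 9.37, 9.37, 9.60 and 9.50 in fullerene 21 to 24. The BayTubes and fullerene samples were above all Ctrl, rCNT, tCNT and SES samples, and Graphite 14 (9.26) reached the BayTubes range. The difference from Ctrl was 1.04 ± 0.11 after BayTubes (2.06-fold), 1.18 ± 0.12 after fullerene (2.26-fold) and 0.72 ± 0.11 after Graphite. A further spot of Mthfd1l, with a mean signal of 7.35, gave 0.55 ± 0.13 and 0.74 ± 0.14 for the first pair of comparisons, the same direction at a smaller size.

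Slc25a33 (chr4:149744036-149774267) had the smallest shift. It was 10.13, 10.07 and 10.28 in Ctrl 1 to 3, 10.50, 10.46, 10.70 and 10.71 in fullerene 21 to 24, and 10.30, 10.52, 10.47 and 10.23 in BayTubes 17 to 20. Fullerene was above Ctrl in 4 of 4 samples, whereas BayTubes overlapped Ctrl. The difference from Ctrl was 0.45 ± 0.10 after fullerene and 0.22 ± 0.09 after BayTubes, and -0.00 ± 0.09 after Graphite. Its other spot, with a mean signal of 7.58, gave 0.34 ± 0.21 and 0.21 ± 0.19 in the first pair.

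Tex11 (chrX:100838648-101059639) had its highest mean after Graphite, whereas the other genes higher after BayTubes and fullerene had theirs after fullerene. It was 7.53, 7.51 and 7.59 in Ctrl 1 to 3, and 8.92, 8.79, 8.52 and 8.38 in Graphite 13 to 16. It was 8.34, 8.36 and 8.02 in SES 10 to 12, 8.23, 8.39, 8.32 and 8.54 in BayTubes 17 to 20, and 8.35, 8.49, 8.80 and 8.77 in fullerene 21 to 24. All samples of these 4 groups lay above every Ctrl sample. The difference from Ctrl was 1.15 ± 0.13 after Graphite (2.22-fold), 1.10 ± 0.14 after fullerene, 0.92 ± 0.13 after BayTubes and 0.76 ± 0.15 after SES. A second Tex11 spot had a mean of only 5.68, about the 40th percentile of a sample (5.69 to 5.75), and gave 0.29 ± 0.11 after fullerene and 0.21 ± 0.10 after BayTubes, so the size of the Tex11 difference depends on the spot. The 6 germ cell markers had low means in these lungs, at 5.23 for Dazl, 5.51 for Stra8, 5.63 for Sycp3, 5.72 for Ddx4, 5.85 for Prm1 and 5.97 for Tnp1, of which Dazl and Stra8 did not pass the filter. The summed log2 signal of the 6 germ cell markers was 33.00 to 33.51 in Ctrl, 33.44 to 36.59 in Graphite, 33.33 to 34.14 in SES, 32.92 to 33.71 in BayTubes and 33.26 to 34.44 in fullerene.

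**Figure D2:**
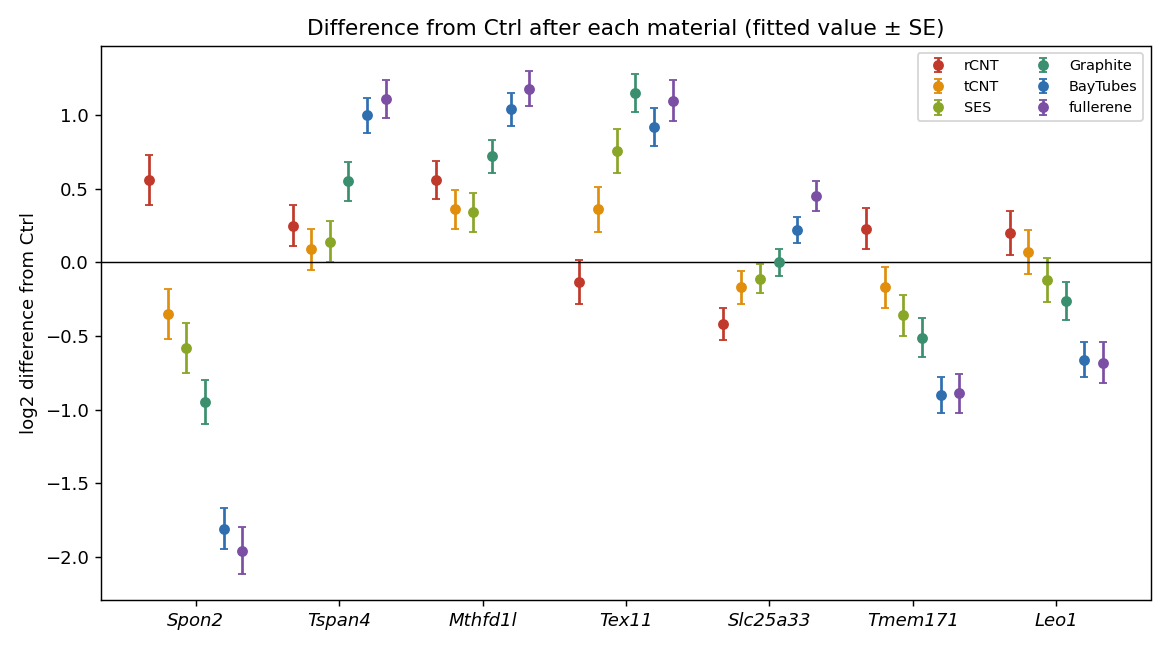
Fitted log2 difference from Ctrl (vertical axis, ± SE) of each gene after each of the 6 materials, all against the same 3 Ctrl samples. BayTubes and fullerene lie side by side for every gene, from -1.96 for Spon2 to 1.18 for Mthfd1l, and rCNT lies on the opposite side of 0 from them for Spon2, Tmem171, Leo1, Tex11 and Slc25a33.

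BayTubes and fullerene were also set against each other directly. The log2 difference of fullerene from BayTubes was -0.15 for Spon2 (95% interval -0.46 to 0.15), 0.12 for Tspan4 (-0.14 to 0.37), 0.13 for Mthfd1l (-0.10 to 0.36) and 0.18 for Tex11 (-0.09 to 0.45). It was 0.23 for Slc25a33 (0.04 to 0.42), 0.01 for Tmem171 (-0.24 to 0.26) and -0.01 for Leo1 (-0.28 to 0.25). For every gene the BayTubes and fullerene samples overlapped. Of the 7 genes, 6 passed an adjusted p under 0.05 after BayTubes, where 3.18% of all genes did, and 6 after fullerene, where 0.26% did, with Slc25a33 the exception in both. The samples did not overlap with Ctrl for 6 genes after BayTubes (12.2% of all genes) and for 7 after fullerene (16.6%). These counts restate how the genes were picked, and nothing is read from them.

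After rCNT, 3 of the 7 genes changed against Ctrl at an adjusted p under 0.05 (limma over all 16519 genes, Benjamini-Hochberg), where 21.8% of all genes did. Spon2 rose by 0.56 ± 0.17 (SE, n = 3 against 3, 1.48-fold, adjusted p = 0.024), and every rCNT sample was above every Ctrl sample. Mthfd1l rose by 0.56 ± 0.13 (1.48-fold, adjusted p = 0.00358), although rCNT 4 at 8.45 lay within the Ctrl range of 8.09 to 8.56. Slc25a33 fell by 0.42 on the log2 scale (-0.42 ± 0.11, 1.34-fold, adjusted p = 0.00713), from 10.13, 10.07 and 10.28 in Ctrl 1 to 3 to 9.75, 9.61 and 9.84 in rCNT 4 to 6. Its rCNT samples were thus the lowest of all 24.

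Cell type markers moved in the same comparison, with 32 of the 90 tested markers of 18 lists called after rCNT, against 21.8% of all genes. Of 6 endothelial markers 5 fell and none rose (summed log2 signal 75.85 to 77.26 in rCNT against 80.76 to 81.44 in Ctrl), among them the vascular growth factor receptor gene Kdr at -0.76 ± 0.15 (adjusted p = 0.000913). Of 6 alveolar type 1 markers 3 fell (80.34 to 82.21 against 84.12 to 84.98), and of 5 ciliated cell markers 4 rose (50.73 to 51.38 against 47.49 to 48.51). Of 5 tested markers of monocytes and recruited macrophages 3 rose (52.33 to 56.79 against 47.11 to 48.31), and the macrophage elastase gene Mmp12 was at 3.01 ± 0.45 (adjusted p = 9.51e-05). The part of these shifts in the rCNT differences of Spon2, Mthfd1l and Slc25a33 was not tested.

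The other 4 did not pass the test after rCNT. Tspan4 was at 0.25 ± 0.14 (95% interval -0.05 to 0.55), Tmem171 at 0.23 ± 0.14 (-0.07 to 0.52), Leo1 at 0.20 ± 0.15 (-0.11 to 0.52) and Tex11 at -0.13 ± 0.15 (-0.45 to 0.19). Tmem171 and Tex11 had no overlap between rCNT and Ctrl samples, as had 34.8% of all genes. For Tex11 the rCNT values were 7.30, 7.31 and 7.32, the lowest of the 24 samples. These calls depended on single samples: without rCNT 5, Mthfd1l alone passed (adjusted p = 0.0174), with Spon2 at 0.47 and Slc25a33 at -0.32. Spon2 also missed the threshold without Ctrl 3 (0.45) and without Ctrl 1 (0.58). With array as a fixed term, or with rCNT and Ctrl alone in the fit, 0 of the 7 passed in limma (2 and 3 at an unadjusted p under 0.05). Spon2 was then at 0.33 and 0.66, Mthfd1l at 0.48 and 0.60 and Slc25a33 at -0.46 and -0.44. In the fit of rCNT and Ctrl alone, which takes no spread from the groups used in the choice, the SE was 0.17, 0.21 and 0.15. In the main fit it was 0.17, 0.13 and 0.11.

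Within slide 1 (3 BayTubes samples, 1 fullerene, 1 rCNT and 1 Ctrl), Spon2 differed from Ctrl by -2.09 after BayTubes, -1.99 after fullerene and 0.34 after rCNT. Within slide 2 (1 BayTubes, 1 fullerene, 1 rCNT and 2 Ctrl), the values were -1.26, -1.98 and 0.77. Tspan4 was at 1.29 and 1.43 after BayTubes and fullerene in slide 1 and at 1.10 and 1.17 in slide 2, and Mthfd1l at 1.09 and 1.35 and then 1.28 and 1.35. The directions of all 7 genes after BayTubes and fullerene were the same on both slides as over all samples, and slide 3 held no Ctrl sample. Both slides are parts of the samples on which the genes were picked, so this sameness is a description and not a replication. After rCNT, Mthfd1l was at 0.39 and 1.02 and Slc25a33 at -0.29 and -0.16 in slides 1 and 2. With 1 rCNT sample on each slide, these values are given without a test.

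For each gene, the 3 genes with the most similar signal over the 24 samples were found by Pearson correlation among all tested genes. The samples share groups and arrays, so these values only describe likeness. Spon2 was nearest to Tmem171 (0.95), Leo1 (0.91) and the clock activator Arntl (0.91). Leo1 was nearest to Spon2 (0.91), Arntl (0.87) and Tmem171 (0.83), and Tmem171 to Spon2, the Notch-pathway ubiquitin ligase gene Dtx4 (0.93) and the cyclin-like gene Ccnjl (0.92). Tspan4 was nearest to Mthfd1l (0.92), Wee1 (0.91), a kinase that holds back mitosis and is a known target of the clock, and the neuropeptide Y receptor Npy1r (0.85). Mthfd1l was nearest to Wee1 (0.93), Tspan4 (0.92) and Nat8f5 (0.87). Tex11 was nearest to the clock repressor Nr1d2 (0.90), Cdc42ep3 (0.86) and the transcription factor Cux2 (0.85). Slc25a33 was nearest to Cys1 (0.89), Nat8 (0.88) and the vitamin B6 kinase Pdxk (0.87).

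Clock genes were measured as a list of 18, of which 17 could be tested. The list was chosen with earlier results of these data known, so its counts describe these samples. After BayTubes 7 rose and 1 fell at an adjusted p under 0.05 (limma; 2.16% of all genes rose and 1.02% fell), and after fullerene 5 rose and 1 fell (0.151% and 0.109%). After rCNT 2 rose and 6 fell (12.4% and 9.41%). The median difference over the list was 0.44, 0.47 and -0.42 in the same order, against medians over all genes of -0.00593, 0.018 and -0.0151. Arntl fell by 2.19 on the log2 scale after BayTubes (-2.19 ± 0.18, adjusted p = 8.97e-07) and fell by 2.15 after fullerene (-2.15 ± 0.20, adjusted p = 9.4e-06), and Per2 rose by 1.43 ± 0.19 (adjusted p = 0.00027) and 1.53 ± 0.21 (adjusted p = 0.00138). After rCNT, Per1 fell by 1.04 (-1.04 ± 0.16, adjusted p = 0.000127) and Bhlhe40 rose by 1.30 ± 0.24 (adjusted p = 0.000597).

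**Figure D3:**
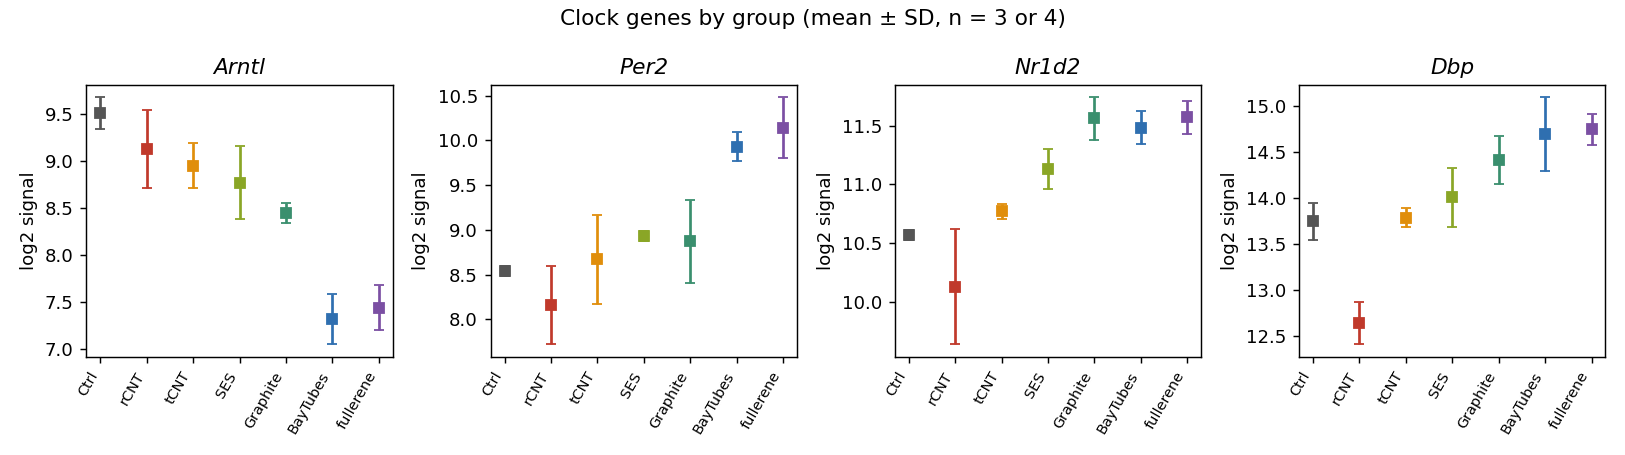
Log2 signal (vertical axis, group mean ± SD, 3 or 4 samples) of the clock genes Arntl, Per2, Nr1d2 and Dbp by group. Arntl goes down from Ctrl (9.51) to fullerene (7.44) and BayTubes (7.32), while Dbp is lowest after rCNT (12.64) and highest after fullerene (14.75).

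Apart from rCNT, Arntl stepped down through the groups much as Spon2 did. After rCNT Spon2 was above Ctrl (0.56 ± 0.17), whereas Arntl was at -0.41 ± 0.22 and did not pass (limma, adjusted p = 0.192). The mean of Arntl was 9.51 ± 0.17 (SD, n = 3) in Ctrl, 9.13 ± 0.41 in rCNT, 8.95 ± 0.24 in tCNT, 8.77 ± 0.39 in SES, 8.45 ± 0.11 in Graphite, 7.32 ± 0.27 in BayTubes and 7.44 ± 0.24 in fullerene. The sample numbers in the titles run in nearly the same order, with Ctrl 1 to 3, rCNT 4 to 6, tCNT 7 to 9, SES 10 to 12, Graphite 13 to 16, BayTubes 17 to 20 and fullerene 21 to 24, and number and group cannot be told apart. The labels do not say what the numbers count, and the hour at which each group was dosed or its lungs taken is not given in the sources used here. The part of clock phase in the differences of the 7 genes was not tested.

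The 7 genes split into a pair of sets by their sign with Arntl, which repeats their directions after BayTubes and fullerene. Arntl was itself low in those groups, so these signs restate how the genes were picked and are no test. Spon2, Tmem171 and Leo1 correlated with it at 0.91, 0.87 and 0.87 over the 24 samples. Tspan4, Mthfd1l, Slc25a33 and Tex11 were at -0.88, -0.82, -0.79 and -0.69. With group means removed, Arntl stood at 0.48 with Spon2, -0.63 with Slc25a33 and between -0.16 and 0.26 with the other 5, so most of the likeness lay between groups. Dbp, which carries the rhythm to output genes, was at -0.90 with Spon2, 0.86 with Slc25a33 and 0.53 with Mthfd1l.

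**Figure D4:**
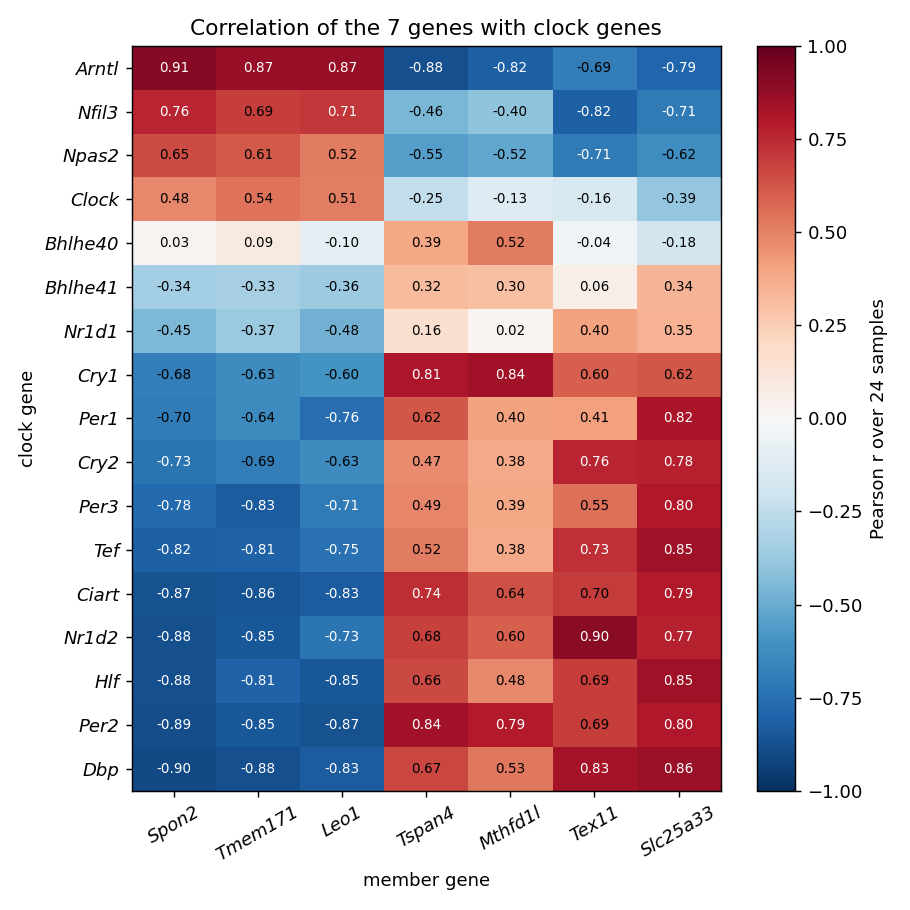
Pearson correlation over 24 samples (colour and printed value) of each of the 7 genes (columns) with 17 clock genes (rows, ordered by their value with Spon2). Spon2, Tmem171 and Leo1 are positive with Arntl (0.91, 0.87 and 0.87) and negative with Per2 and Dbp, and the other 4 genes have the opposite signs.

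The promoters are shown because several of the 7 genes moved together, some with Arntl and some opposite to it. The Arntl protein binds, with Clock, the E-box CACGTG. RefSeq promoters (GRCm38.p6, 250 bases before to 50 after a start) matched 4 of the 7 genes, namely Tspan4 with 2 starts, Mthfd1l, Slc25a33 and Leo1. The 7 motifs searched on both strands were the E-box CACGTG, the AP-1 site TGACTCA, the cAMP response element TGACGTCA, the nuclear receptor core AGGTCA, the D-box TTATGTAA bound by Dbp, the CCAAT box and the TATA box (TATAAA). The E-box was found in 2 of these 5 windows, those of Slc25a33 and the second Tspan4 start, and in 7.15% of the 32851 promoters of the table. Both genes ran opposite to Arntl over the 24 samples (r = -0.79 and -0.88), as did Mthfd1l (-0.82), whose window had no E-box. Leo1, which had no E-box either, ran with Arntl (0.87). The part of Arntl in these differences was not tested. The 250 bases before the start of the 3 windows with a match there are given 5′ to 3′ on the gene's strand, with matches in capitals.
Tspan4 (second start, chr7:141476130-141476379, plus strand): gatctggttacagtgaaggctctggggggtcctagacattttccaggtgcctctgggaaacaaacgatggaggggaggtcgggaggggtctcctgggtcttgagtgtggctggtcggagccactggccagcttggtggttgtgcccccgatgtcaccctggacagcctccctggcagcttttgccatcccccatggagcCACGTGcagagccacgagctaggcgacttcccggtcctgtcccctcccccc
Slc25a33 (chr4:149774268-149774517, minus strand): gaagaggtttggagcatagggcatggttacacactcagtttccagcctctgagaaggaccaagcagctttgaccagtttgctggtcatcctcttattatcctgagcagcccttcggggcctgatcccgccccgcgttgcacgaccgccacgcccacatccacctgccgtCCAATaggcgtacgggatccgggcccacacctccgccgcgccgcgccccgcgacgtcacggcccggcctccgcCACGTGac
Leo1 (chr9:75441274-75441523, plus strand): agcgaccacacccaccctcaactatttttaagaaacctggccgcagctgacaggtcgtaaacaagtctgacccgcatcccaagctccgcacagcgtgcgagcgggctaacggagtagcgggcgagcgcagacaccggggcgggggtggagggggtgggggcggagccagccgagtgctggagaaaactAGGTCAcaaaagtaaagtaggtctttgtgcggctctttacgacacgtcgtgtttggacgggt
The E-box match began 51 bases before the start in Tspan4 and 8 before it in Slc25a33, which also held CCAAT (37.4% of all promoters). Leo1 held AGGTCA (16.3%), the core of sites for nuclear receptors such as those of the Nr1d family. Tspan4 had a match to TGACTCA on the minus strand after its start (5.2%), and no motif overlapped another. The first Tspan4 window and that of Mthfd1l held none of the 7 motifs. A match is a description of the letters and not evidence of binding.

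Of 101 tested genes related to the 7 by function, in 6 lists, 4 passed after BayTubes, where 3.18% of all genes did, and 0 after fullerene, where 0.26% did; these shares are near the background. Of 26 other tetraspanins tested, 0 rose and 1 fell after BayTubes (limma), the urothelial tetraspanin Upk1a at -0.86 ± 0.12 (adjusted p = 0.000448), and their median was -0.10 while Tspan4 was at 1.00. Of 22 other genes of folate one-carbon metabolism, Psat1 of serine synthesis rose by 0.84 ± 0.18 (adjusted p = 0.0129) and the cytosolic folate enzyme gene Mthfd1 was lower at -0.43 ± 0.09 (adjusted p = 0.00763), with a median of 0.04. Of 11 genes of meiotic recombination, Syce2 of the synaptonemal complex rose by 0.67 ± 0.15 (adjusted p = 0.012), with a median of 0.01. In limma no gene passed among the 23 of the PAF1 complex and elongation (median -0.07, range -0.23 to 0.14), the 10 thrombospondin-repeat proteins (median -0.13) or the 10 mitochondrial carriers (median 0.03), and at an unadjusted p under 0.05 there were 0, 1 and 0 in the same order. After fullerene, 0 of the 101 genes of these 6 lists passed in limma (12 at an unadjusted p under 0.05), with medians between -0.06 and 0.08. Psat1, Mthfd1, Upk1a and Syce2 were thus called after BayTubes without a call after fullerene. After fullerene they were at 0.56 ± 0.21, -0.45 ± 0.10, -0.34 ± 0.14 and 0.58 ± 0.16, the same directions as after BayTubes. The difference between those materials was not tested for them.

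After rCNT 27 of the 101 genes of these lists passed, near the 21.8% of all genes. Tetraspanins rose in 4 and fell in 8 of 26, with Upk1a at -1.15 ± 0.15 (adjusted p = 1.78e-05) and Upk1b at -1.09 ± 0.19 (adjusted p = 0.000293), both uroplakin genes. Of the folate list 3 rose and 2 fell, with the mitochondrial enzyme Mthfd2 at 1.52 ± 0.20 (adjusted p = 2.19e-05) and Psat1 at 1.51 ± 0.22 (adjusted p = 8.46e-05). The matrix protein Thbs1 rose by 1.81 ± 0.33 (adjusted p = 0.000529) among 10 thrombospondin-repeat proteins, of which 2 rose and 1 fell, the Wnt enhancer Rspo1 at -0.77 ± 0.18 (adjusted p = 0.0041). Of 10 mitochondrial carriers 1 was higher and 3 were lower. Among the lower ones were the pyrimidine carrier Slc25a36, a relative of Slc25a33, at -0.62 ± 0.15 (adjusted p = 0.00532) and Slc25a51 at -0.35 ± 0.10 (adjusted p = 0.0131). The elongation list had 1 gene lower of 23, the P-TEFb inhibitor Hexim1 at -0.42 ± 0.14 (adjusted p = 0.0334). Of the 11 meiotic genes, Syce2 rose by 1.39 ± 0.18 (adjusted p = 1.75e-05) and the cohesin subunit Rec8 was lower at -0.47 ± 0.14 (adjusted p = 0.0184).

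Markers of lung cell types were also counted after BayTubes and fullerene. After fullerene 0 of the 90 genes tested from 18 marker lists passed in limma (11 at an unadjusted p under 0.05), against 0.26% of all genes. After BayTubes 6 of the 90 passed, against 3.18% of all genes. There 3 of 5 ciliated cell markers rose (median 0.57, summed log2 signal 49.02 to 50.48 against 47.49 to 48.51 in Ctrl). Of the other ciliated markers, Ccdc39 was at 0.61 ± 0.18 and Foxj1 at -0.20 ± 0.16, and neither passed. Of endothelium, fibroblasts and fat, 1 marker each fell. All 6 natural killer cell markers were detected, with a median of -0.09 after BayTubes and 0.08 after fullerene. The part of cell composition in the differences of the 7 genes was not tested.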

How the data were processed

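Lung RNA pools of 2 mice were measured on 2-dye Agilent arrays. The table deposited by the authors holds a log2 signal for each spot in each sample, and the submitters' processing notes list Agilent Feature Extraction and limma, without versions or settings. Background correction and normalization are not given in the sources used here. Sorted values of any samples differed by at most 0.0856, as after quantile normalization.

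Of 62976 spots, 31465 had 1 gene name and 31511 none (platform annotation). Names were updated with RefSeq (GRCm38.p6) through the accession (29050 spots), the symbol (2061) or a synonym (349), and 5 kept theirs. Where a gene had several spots, that of highest mean was used. A gene was tested if above its sample's 40th percentile in at least 3 samples. The fit (limma 3.58.1, R 4.3.3) used all 24 samples, with group and dye terms, the array as random block (correlation 0.399), and Benjamini-Hochberg adjustment over 16519 genes, 2-sided. It was also run on data simulated from the fit itself, with normal errors and a common array correlation, which is no check of those assumptions. Labels do not say whether pools of a group came from separate cages, so p-values measure the spread between these pools. The members and lists were chosen with earlier results of these data known. Besides the 7 genes, the text names per list and comparison the 2 called genes with the smallest p, and per member the 3 most correlated genes; other genes named as markers or clock components describe a list. Alternatives changed dye, array, slide, filter, centring, spot, variance prior, samples and threshold.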

Additional observations from a re-analysis of the deposited data

How the results depend on the processing

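The 7 genes kept their directions after BayTubes and fullerene under every alternative tried. These fits reuse the samples on which the genes were picked, so the kept directions are a description and not independent evidence. Of the 7 genes, 3 passed after rCNT, 6 after BayTubes and 6 after fullerene, where 21.8%, 3.18% and 0.26% of all genes did. The 118 genes called related here are the 101 of the 6 function lists and the 17 clock genes. Of these 118, 35, 12 and 6 passed, while of the 101 without clock genes 27, 4 and 0 did. With array as a fixed term the counts became 0, 5 and 1 of the 7, and 15, 4 and 0 of the 118 related genes. All genes called went from 3600, 526 and 43 to 1074, 61 and 1 (25 related genes after fullerene at an unadjusted p under 0.05). With no array block 6 related genes passed after BayTubes, of 240 genes called in all. With only the groups compared in the fit 0 of the 7 and 14 related genes passed after rCNT, of 1017 called in all. In that fit 3 related genes passed after fullerene, of 13 called in all. At an adjusted p under 0.01 the related genes were 21, 6 and 3, of 1962, 231 and 14 called in all. Within slide 1, 0 of the 7 passed after each material, with 1 related gene after BayTubes and 0 after fullerene (limma; 2, 7 and 7 of the 7 at an unadjusted p under 0.05, and 15 related genes after fullerene), where 3479, 5 and 0 of all genes were called. Within slide 2, 0, 3 and 3 of the 7 passed, and 19, 19 and 14 related genes, of 2392, 2003 and 793 genes called in all. Within a slide, groups with 1 sample take their spread from the other groups, so passing or not says little about them. Fewer samples enter the fits within slides and of only the groups compared, and the latter take no spread from the other groups. The cause of the changes was not tested. Leaving out 1 sample at a time gave 1 to 3, 5 to 6 and 4 to 6 of the 7, and 26 to 37, 5 to 12 (5 without Ctrl 2) and 3 to 5 related genes (3 without Ctrl 1, Ctrl 2 or fullerene 21). All genes called then ranged from 2445 to 3633, 241 to 558 and 11 to 33. After rCNT, Tex11 turned to 0.01 with array as a fixed term and Leo1 to -0.10 within slide 1. Omitting the array shared by rCNT 4 and Graphite 16, chosen after seeing the data, kept Spon2, Mthfd1l and Slc25a33 past the threshold. No replicate number occurs in more than 1 group, so numbers pair no samples, and the fit with array as a fixed term is the one that compares samples within arrays.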
